A study of Mus musculus with 4 samples.

Results

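The 10 genes described here belong to the peroxide-reducing thiol and selenium systems and were followed through mouse preimplantation development at the level of the gene and of the full-length isoform. They were taken by symbol, as the 6 peroxiredoxin genes Prdx1, Prdx2, Prdx3, Prdx4, Prdx5 and Prdx6, the thioredoxin gene Txn1, the thioredoxin reductase gene Txnrd1 and the glutathione peroxidase genes Gpx1 and Gpx4. All 10 were present among the 20171 genes of the gene table, and 85 of the 68012 isoforms of the isoform table belonged to them. All 10 genes and 40 of the 85 isoforms passed the filter for testing, which asked for at least 1 copy in at least 4 embryos.

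Peroxiredoxins are peroxidases that reduce hydrogen peroxide through a reactive cysteine, and most of them are returned to the reduced form by thioredoxin, which is itself reduced by thioredoxin reductase with electrons from NADPH. Glutathione peroxidases do the same work with glutathione. Gpx1 acts on soluble peroxides, and Gpx4 acts on lipid peroxides in membranes and protects cells from ferroptosis. In the mouse, the oocyte lays down maternal mRNA that is cleared after fertilization, and the main wave of embryonic transcription starts in the late 2-cell embryo.

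Single cells were sequenced by HIT-scISOseq, a PacBio long-read method in which each cell carries a barcode and each cDNA molecule a unique molecular identifier (UMI). The 161 cells came from oocytes and embryos of DBA/2J x C57BL/6J strain background per the sample labels, while the study's methods name the males as DBA/2NCrl, and from mouse embryonic stem cells (mESC, line E14Tg2A). The labels give no other genotype and no treatment besides the hormones given to the egg donors. Unfertilized MII oocytes were taken at 20 hours after hCG, the hormone that triggers ovulation, zygotes at 22 to 24 hours, early 2-cell embryos (E2C) at 30 to 32 hours, late 2-cell embryos (L2C) at 46 to 48 hours, 4-cell embryos at 54 to 56 hours, 8-cell embryos at 68 to 70 hours, 16-cell and 32-cell embryos at 78 to 80 hours and early blastocysts at 88 to 90 hours. Cells were joined by the embryo number in their names, which gave 10 oocytes and 9 zygotes of 1 cell each, 5 embryos at E2C, 6 at L2C, 5 at 4-cell, 4 at 8-cell and 4 at 16-cell as replicates. The 22 32-cell cells, 13 blastocyst cells and 5 mESC name no embryo and were described by range and median, with no test.

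Levels are copies per 100,000 UMIs of the cell, averaged over the cells of an embryo. A level is therefore a share of a cell's RNA, and a change in the number of molecules per cell cannot be told apart from a change in the rest of the RNA. Depth ran from 4985 to 389775 UMIs per cell, with a median of 195670 in oocytes and of 32481 in 16-cell blastomeres, so that low levels were measured less precisely in late cells. L2C replicate 1 consisted of 1 cell with 17971 UMIs. No cell barcode was shared between runs. The summed level of 6 oocyte markers was 1691 to 2259 in oocytes, 526.2 to 710.2 in E2C and 46.8 to 153 in L2C embryos. All 6 inner cell mass and stem cell markers had UMIs in mESC, but also in oocytes, zygotes and 4-cell embryos. Their sum was 180.2 to 379.4 in mESC, against at most 7.79 in oocytes and at most 131.5 in blastocyst cells. Of 6 2-cell markers 5 were in the gene table. The median of their sum was 48.3 in zygotes, 41.6 in E2C and 4.76 in L2C embryos. Markers of cumulus cells, which surround the egg, summed to at most 9.81 in any oocyte.

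A gene was called when its log2 fold change of log2(copies + 1) exceeded 1 in size with p under 0.01 in limma, fitted over all 11682 genes that passed the filter, with Benjamini-Hochberg adjusted p given beside it. Over the 6 steps between adjacent stages, 5 of 60 comparisons of the 10 genes were called higher and 3 lower. Of these 8 calls 6 fell at the step from E2C to L2C, where 4 of the 10 genes rose (Prdx4, Prdx5, Gpx1 and Gpx4) and 2 fell (Prdx1 and Prdx2). Of all genes tested, 25.6% were called higher and 22.8% lower at this step, so that a gene called there was common in the whole table. The median log2 fold change at this step was 0.73 over the 10 genes and 0.03 over all genes tested.

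**Figure D1:**
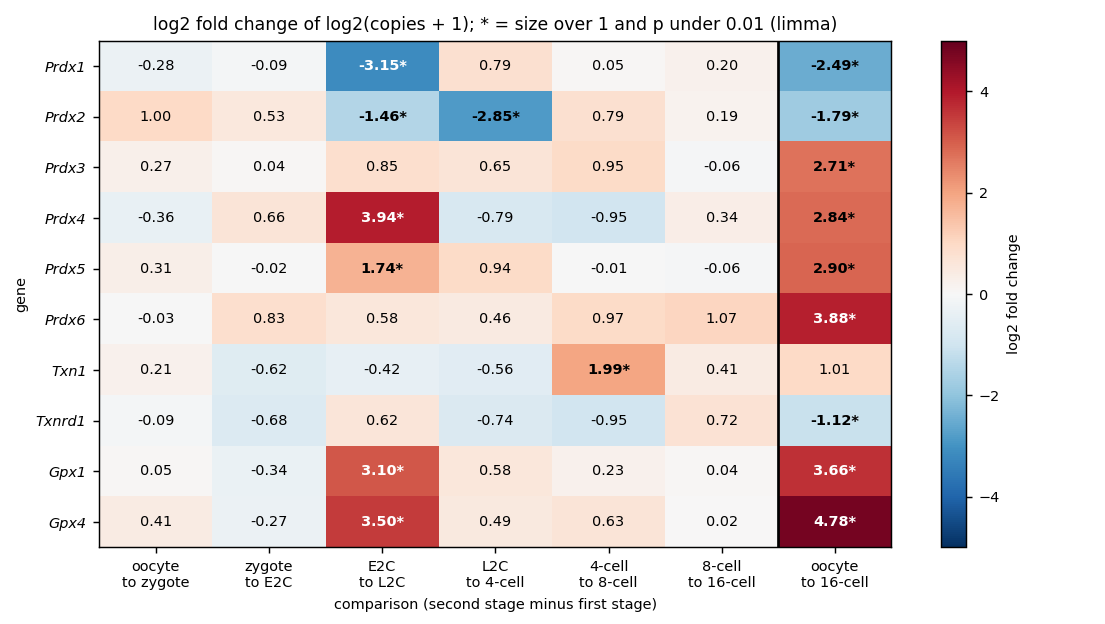
Log2 fold change of each of the 10 genes (rows) at each of the 6 steps between adjacent stages and from oocyte to 16-cell (columns), second stage minus first stage. A star marks a call (size over 1 and p under 0.01, limma). The E2C to L2C column holds 6 of the 8 starred steps, from 3.94 for Prdx4 to -3.15 for Prdx1.

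At the other steps few of the 10 genes passed the test. From oocyte to zygote none was called, with 2.92% of all genes called higher and 0.325% lower, and 1 of the 10 had an unadjusted p under 0.05 in limma. From zygote to E2C none was called, with a background of 4.52% higher and 2.75% lower and 3 of the 10 at an unadjusted p under 0.05. From L2C to 4-cell 1 gene, Prdx2, fell (background 2.41% higher and 4.28% lower), and from 4-cell to 8-cell 1 gene, Txn1, rose (background 4.47% higher and 10.5% lower). From 8-cell to 16-cell none was called (background 1.9% higher and 1.46% lower), and 1 of the 10 had an unadjusted p under 0.05. Between the oocyte and the 16-cell embryo 6 of the 10 genes were higher (Prdx3, Prdx4, Prdx5, Prdx6, Gpx1 and Gpx4) and 3 lower (Prdx1, Prdx2 and Txnrd1), beside 26.8% of all genes higher and 24% lower. This comparison shares its samples with the steps at both ends and is no independent evidence of them.

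**Figure D2:**
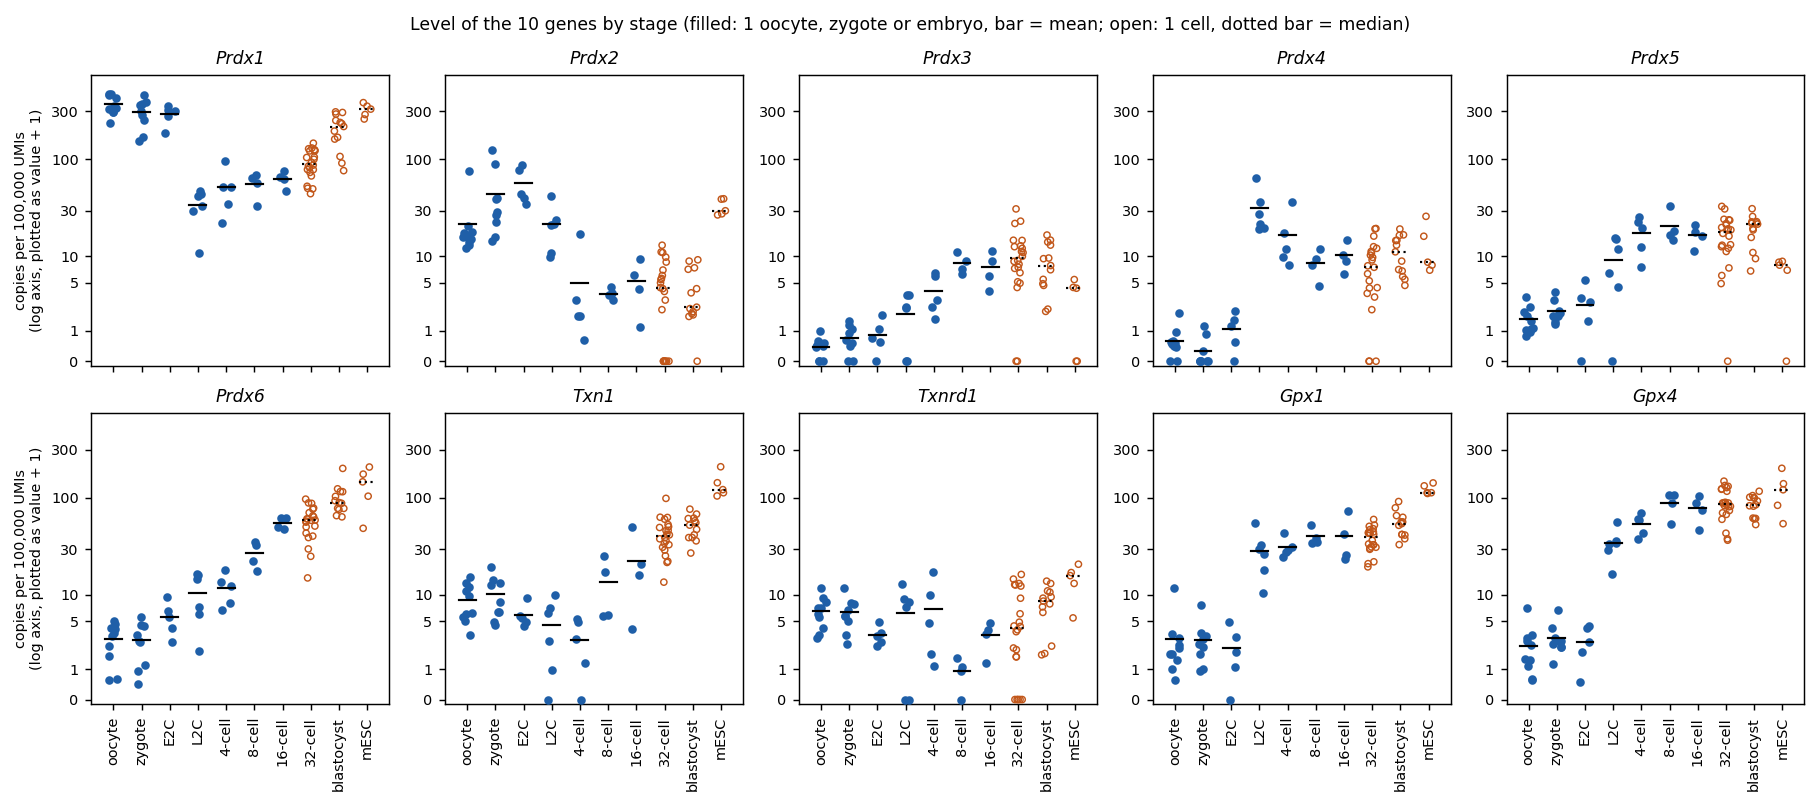
Level of each gene by stage in copies per 100,000 UMIs, on a log axis of value + 1. Filled points are oocytes, zygotes or embryos with their mean as a bar, and open points are single cells of stages without embryo names with their median as a dotted bar. Prdx1 drops between E2C and L2C, from a lowest E2C value of 182 to a highest L2C value of 47.6, while Prdx4, Gpx1 and Gpx4 separate upwards at the same place.

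Prdx1 encodes the main cytosolic peroxiredoxin and lies on chromosome 4 (GRCm38, chr4:116685544-116700822, plus strand). Its level in oocytes ran from 233 to 448 copies with a median of 332, and in zygotes from 153 to 433 with a median of 302. The 5 E2C embryos had 314, 182, 303, 271 and 341 copies. The values of these stages overlapped. The 6 L2C embryos ran from 10.9 to 47.6 copies with a median of 38.0, and none reached the lowest E2C embryo. The mean fell from 282 ± 61.3 copies (SD, n = 5) to 34.8 ± 13.5 copies (SD, n = 6), which was 8.10-fold lower (log2 fold change -3.15, SE 0.32, limma adjusted p = 1.22e-12). After this drop the level stayed low. The 4-cell embryos had 96.7, 22.3, 35.3, 53.1 and 52.7 copies, the 8-cell embryos 69.5, 65.3, 57.8 and 33.8, and the 16-cell embryos 65.8, 48.1, 75.3 and 63.4, with no call between neighbours. Prdx1 was still 5.62-fold below the oocyte at 16-cell (log2 fold change -2.49, SE 0.26, limma adjusted p = 5.51e-13). Single cells were higher again later, with a median of 90.0 (45.0 to 145) at 32-cell, 212 (76.9 to 297) in blastocysts and 317 (252 to 367) in mESC, but these 3 stages were each sequenced in 1 run and have no embryo names, so that their order was not tested.

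The promoter of Prdx1 is shown because the starts of its isoforms fall in and around it and because it holds the core letters of the antioxidant response element, the short sequence known to be bound by Nrf2 with small Maf proteins. The 300 bases from RefSeq (GRCm38.p6, chr4:116685349-116685648, plus strand) run from 250 bases before the annotated start to 50 after it, and the capitals mark TGACNNNGC read on the minus strand, 133 bases before the start.
Prdx1 promoter: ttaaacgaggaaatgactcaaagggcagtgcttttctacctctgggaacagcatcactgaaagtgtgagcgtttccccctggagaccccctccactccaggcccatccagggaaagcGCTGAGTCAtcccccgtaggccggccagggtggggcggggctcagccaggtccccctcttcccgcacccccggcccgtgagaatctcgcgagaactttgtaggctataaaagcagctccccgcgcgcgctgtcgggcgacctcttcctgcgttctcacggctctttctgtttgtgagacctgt
Txnrd1 promoter: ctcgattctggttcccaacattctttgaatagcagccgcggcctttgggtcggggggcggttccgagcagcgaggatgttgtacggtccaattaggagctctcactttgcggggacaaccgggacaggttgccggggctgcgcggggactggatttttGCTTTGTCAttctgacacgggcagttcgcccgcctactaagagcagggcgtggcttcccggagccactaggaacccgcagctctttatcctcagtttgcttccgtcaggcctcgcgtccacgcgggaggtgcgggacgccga
The second sequence is 1 of 3 RefSeq promoters of Txnrd1 (chr10:82858956-82859255, plus strand), with the same 9 letters on the minus strand 92 bases before the start. On either strand the letters TGACNNNGC were present in 2 of the 14 promoters listed for 9 of the 10 genes and in 12.4% of the 32851 promoters of the table. Prdx6 had no entry. A match describes these letters in this window only.

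Prdx1 had 17 isoforms, 5 of them full splice matches (FSM), which share every junction with an annotated transcript. Most Prdx1 molecules came from 2 of these with the same junctions as Prdx1-204. PB.52925.9 starts at position 116685553 (1040 bases long), inside the promoter window above, and PB.52925.6 starts 657 bases upstream at 116684896 (1798 bases long), outside it. Both hold the annotated start codon. Their summed level was 442.6 ± 101.2 copies per 100,000 isoform UMIs (SD, n = 10) in oocytes, 367 ± 84.8 copies (SD, n = 5) in E2C and 42.9 ± 19.4 copies (SD, n = 6) in L2C embryos. PB.52925.9 alone fell from 297 to 35.4 copies at this step (log2 fold change -3.08, SE 0.43, limma adjusted p = 3.82e-08).

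The share of Prdx1 UMIs held by the upstream-start isoform PB.52925.6 differed between sequencing runs more than between stages. In run 1 it was 52.2 to 59.6% in 5 oocytes and 47.3 to 54.8% in 4 zygotes. In run 2 it was 1.77% in the only oocyte (12 of 678 UMIs, 95% Wilson interval 1.02 to 3.07%) and 1.17 to 1.90% in the 2 zygotes, and in run 3 it was 7.13 to 11.6% in 4 oocytes and 10.4 to 13.3% in 3 zygotes. Within each of these stages the runs did not overlap, while oocytes and zygotes of the same run lay close together. The same order of runs was seen in stages of 1 run each, with 30.8 to 69.2% in the 13 blastocyst cells of run 1, 0 to 9.68% in the 22 32-cell cells of run 2 and 8.42 to 16.7% in the 5 mESC of run 3, where stage and run cannot be told apart. The 16 columns of run 4, all oocytes and counted separately, had 26.8 to 30.3%. There PB.52925.6 and PB.52925.9 held 902 and 890 of 3193 Prdx1 UMIs in intact oocytes, against 2543 and 3706 of 7000 in oocytes of runs 1 to 3. Prdx1 UMIs were thus divided over isoforms differently in run 4, and its share may not be comparable with the others. E2C embryos, whose run is not given by their names, had 51.3, 0.361, 2.35, 10.7 and 11.7% for replicates 1 to 5 (51.3% with a Wilson interval of 46.9 to 55.6%). Intervals here cover counting error only. 

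**Figure D3:**
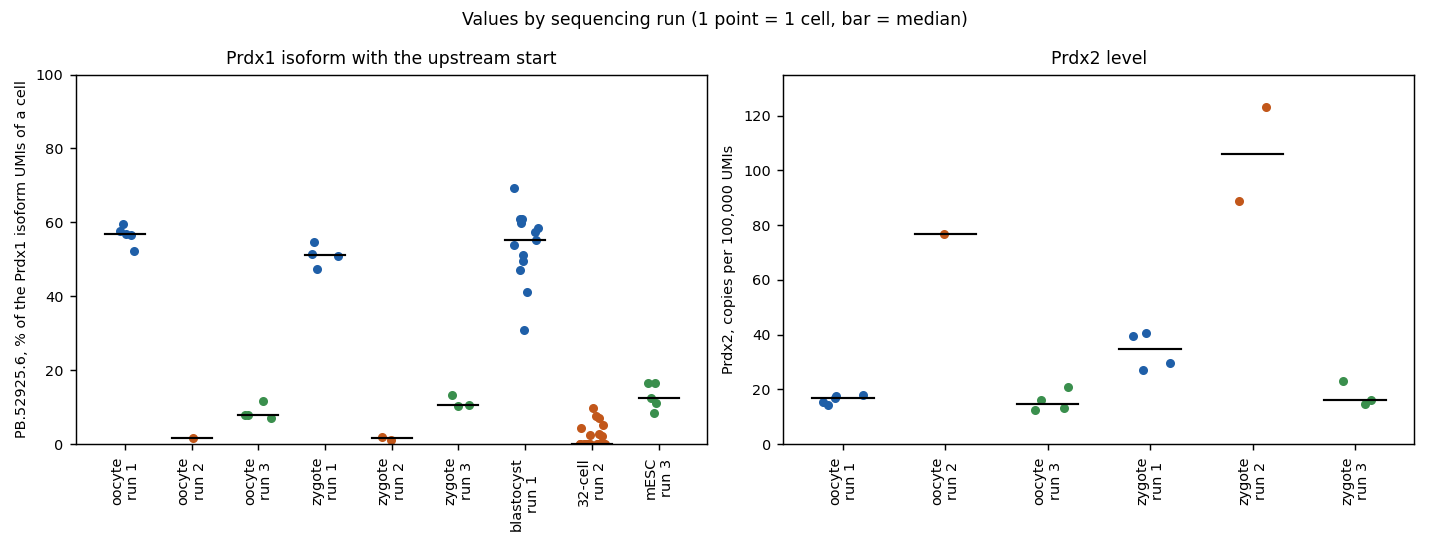
Share of a cell's Prdx1 isoform UMIs held by PB.52925.6 in percent (left) and level of Prdx2 in copies per 100,000 UMIs (right), by stage and sequencing run, 1 point per cell with the median as a bar. Run 1 cells sit at or above 30.8% on the left and the cells of runs 2 and 3 at or below 16.7%, and on the right the 3 run 2 cells (76.7 to 123.2) sit above all oocytes and zygotes of the other runs (at most 40.4).

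Prdx2 encodes a second cytosolic peroxiredoxin, abundant in red cells (chr8:84969587-84974834, plus strand). Of the 10 oocytes 9 had 12.3 to 21 copies, and replicate 6 had 76.7. Zygotes ran from 14.6 to 123.2 with a median of 29.6. The high values were those of run 2, in which the oocyte had 76.7 and the 2 zygotes 123.2 and 89.0 copies, while run 1 oocytes had 14.4 to 18.1 and run 3 oocytes 12.3 to 21. In a limma fit of oocytes and zygotes with a term for the run, Prdx2 was higher in run 2 than in run 1 by 1.91 on the log2 scale (adjusted p for any run difference = 3.53e-05), and 1372 of 11682 genes (11.7%) had an adjusted p under 0.05 for the run. Prdx1 and Txn1 were the other members in that set, lower in run 3 than in run 1, with log2 differences of -0.66 (adjusted p = 0.00679) and -0.81 (adjusted p = 0.00981). From oocyte to zygote Prdx2 differed by a log2 fold change of 0.9995, just under the limit of the call (SE 0.26, limma adjusted p = 0.00525), and by 0.62 with the run as a block (adjusted p = 0.0239).

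The E2C embryos had 35.5, 88.1, 78.3, 40.9 and 44.9 copies of Prdx2, and the 6 L2C embryos ran from 9.80 to 43 with a median of 21.9. Prdx2 fell 2.62-fold, from 57.6 ± 23.9 copies (SD, n = 5) to 22.0 ± 12 copies (SD, n = 6) (log2 fold change -1.46, SE 0.49, limma adjusted p = 0.00916), with 1 L2C embryo inside the E2C range. Without E2C replicate 2 or replicate 3 the change was -1.27 and -1.28 and its p was no longer under 0.01. These 2 embryos had the highest Prdx2 and the lowest PB.52925.6 shares (0.361 and 2.35%) of their stage. The part of the run in this step was not tested. Prdx2 fell again to 4-cell embryos (log2 fold change -2.85, SE 0.56, limma adjusted p = 0.00217). These had 1.78, 17.4, 3.09, 1.80 and 0.622 copies, with replicate 2 (4 UMIs over 2 cells) inside the L2C range. Prdx2 then stayed between 1.17 and 9.27 copies in every 8-cell and 16-cell embryo. Its medians were 4.31 in 32-cell and 2.44 in blastocyst cells, and 30.1 (27.3 to 39.9) in mESC. No mESC overlapped the 32-cell or blastocyst cells, although run and stage cannot be told apart there. Among the 12 isoforms of Prdx2, PB.72495.31, which starts at 84969694, held 46.4% of Prdx2 UMIs in the run 2 oocyte and 50 and 53.0% in the run 2 zygotes, against 3.45 to 35% in the oocytes and 6.25 to 23.4% in the zygotes of runs 1 and 3.

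Prdx3 encodes the mitochondrial peroxiredoxin (chr19:60864051-60874556, minus strand). It was near the detection limit early, at 0 to 1.02 copies in oocytes with a median of 0.440, 0 to 1.51 in zygotes and 0 to 1.85 in E2C embryos. The 6 L2C embryos ran from 0 to 3.55 with a median of 2.39. The 4-cell embryos had 1.63, 2.45, 6.45, 6.04 and 3.04 copies, the 8-cell embryos 6.33, 11, 7.22 and 8.89, and the 16-cell embryos 8.91, 11.3, 3.92 and 6.01. No single step was called, and neighbouring stages overlapped at each of the 6 steps. Across the whole course Prdx3 rose 19.2-fold in its mean from oocyte to 16-cell without overlap (log2 fold change 2.71, SE 0.31, limma adjusted p = 1.87e-11). The isoform table held only 6 Prdx3 isoforms with no FSM among them and none tested, and it counted 21 Prdx3 UMIs at 16-cell where the gene table had 115, so Prdx3 was described at the gene level.

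Prdx4 encodes the peroxiredoxin of the endoplasmic reticulum, which also helps to form disulfide bonds (chrX:155323918-155340754, minus strand). It was almost absent before L2C, at 0 to 2.03 copies in oocytes, 0 to 1.24 in zygotes and 0.547, 1.24, 1.56, 0 and 2.15 in E2C embryos. In L2C embryos it ran from 19.4 to 64.9 with a median of 25.0. All 6 L2C embryos lay above every earlier sample. The mean rose 29-fold, from 1.10 ± 0.846 copies (SD, n = 5) to 31.9 ± 17.5 copies (SD, n = 6) (log2 fold change 3.94, SE 0.39, limma adjusted p = 5.34e-13). Later levels were 36.6, 9.79, 8.03, 11.9 and 17.8 copies at 4-cell, 8.00, 4.56, 12 and 9.38 at 8-cell and 10.4, 6.37, 15.1 and 8.91 at 16-cell. The next 2 steps had log2 fold changes of -0.79 and -0.95 (SE 0.44 and 0.42) and were not called. Its full-length isoform PB.81884.1 rose with it at E2C to L2C (log2 fold change 4.10, SE 0.48, limma adjusted p = 4.92e-10).

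Prdx5 encodes a peroxiredoxin found in mitochondria, peroxisomes and cytosol (chr19:6906697-6910106, minus strand). Oocytes had 0.782 to 3.33 copies with a median of 1.32, zygotes 1.36 to 3.85, and the E2C embryos 2.84, 0, 3.20, 1.52 and 5.40. L2C embryos ran from 0 to 15.7 with a median of 9.23, and the value of 0 was that of replicate 1, the single shallow cell. Prdx5 rose from a mean of 2.59 ± 2.01 copies (SD, n = 5) to 8.99 ± 6.37 copies (SD, n = 6), with overlap (log2 fold change 1.74, SE 0.40, limma adjusted p = 0.000204). The 4-cell embryos had 7.65, 12.5, 26.1, 20.1 and 22.9 copies, the 8-cell embryos 16.8, 18.5, 33.5 and 15, and the 16-cell embryos 18.2, 16.5, 11.5 and 21.7, so that levels from 4-cell on overlapped. From oocyte to 16-cell the log2 fold change was 2.90 (SE 0.32, limma adjusted p = 6.48e-12), without overlap. Medians were 18.3 at 32-cell, 21.9 in blastocyst cells and 7.99 in mESC.

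Prdx6 encodes a peroxiredoxin with a single active cysteine that uses glutathione and also has phospholipase activity (chr1:161240112-161251219, minus strand). It climbed in small steps. Oocytes had 0.553 to 5.08 copies with a median of 3.42, zygotes 0.423 to 5.67 with a median of 2.79, and the E2C embryos 6.54, 5.63, 9.31, 4.13 and 2.70. L2C embryos ran from 2.00 to 16.7 with a median of 11. The 4-cell embryos had 8.03, 12.5, 6.72, 18.2 and 13.6 copies, the 8-cell embryos 22.7, 18, 32.8 and 35.5 and the 16-cell embryos 50.5, 63.0, 48.0 and 61.9. None of the 6 steps was called, although the 8-cell and 16-cell embryos did not overlap (log2 fold change 1.07, SE 0.46, limma adjusted p = 0.336). From oocyte to 16-cell the mean rose 18.6-fold (log2 fold change 3.88, SE 0.37, limma adjusted p = 2.35e-14). Single-cell medians were 59.3 at 32-cell, 89.1 in blastocysts and 144 in mESC.

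The 15 isoforms of Prdx6 ended at 2 main places in the last exon, 553 bases apart, except for 1 isoform that ended at neither. Ends within 20 bases of each other were taken as 1 place. The 30 transcribed bases at each place are shown because they hold hexamers of the kind known from cleavage and polyadenylation signals. They are from GENCODE M21 (GRCm38, Prdx6-202, minus strand), with the hexamer in capitals.
Nearer end, chr1:161241551-161241580: ctactgggtcATTAAAtggaaatggcacca
Farther end, chr1:161241000-161241029: AATAAAatcctgatcagaaaaccgttgtca
The common form AATAAA stands at the farther end, 31 bases before the end of PB.4313.2, and the variant ATTAAA stands at the nearer end, 19 bases before the end of PB.4313.41. The 2 isoforms have the same junctions as Prdx6-202 and hold the same start codon, so they differ in the length of the last exon (1513 and 960 bases in all).

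Of the UMIs at these 2 ends, the nearer took 20% of Prdx6 in oocytes (11 of 55 UMIs), 22.4% in zygotes (13 of 58) and 22.0% in E2C embryos (9 of 41), with single embryos at 0 to 50%. It took 67.9% in L2C (36 of 53) and 64.5% in 4-cell embryos (40 of 62), with every embryo of these 2 stages at 42.9% or more and every E2C embryo at 37.5% or less. The share was lower again later, at 41.2% at 8-cell (77 of 187), 42.9% at 16-cell (234 of 545), 46.5% at 32-cell (155 of 333), 30.9% in blastocysts (163 of 527) and 32.3% in mESC (42 of 130). In levels, PB.4313.41 rose from E2C to L2C, from 1.08 to 7.38 copies (log2 fold change 1.86, SE 0.47, limma adjusted p = 0.00131), and PB.4313.2, at 4.69 and 2.91 copies, was not called. PB.4313.2 rose later, from 4-cell to 8-cell (4.00 to 16.3 copies, log2 fold change 1.54, SE 0.49, limma adjusted p = 0.0379). This call was lost without 4-cell replicate 5 (1.45) or 8-cell replicate 4 (1.37), where p was no longer under 0.01. Within runs the nearer end took 14.3% (median, run 1), 25% (run 2) and 8.33% (run 3) in oocytes.

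**Figure D4:**
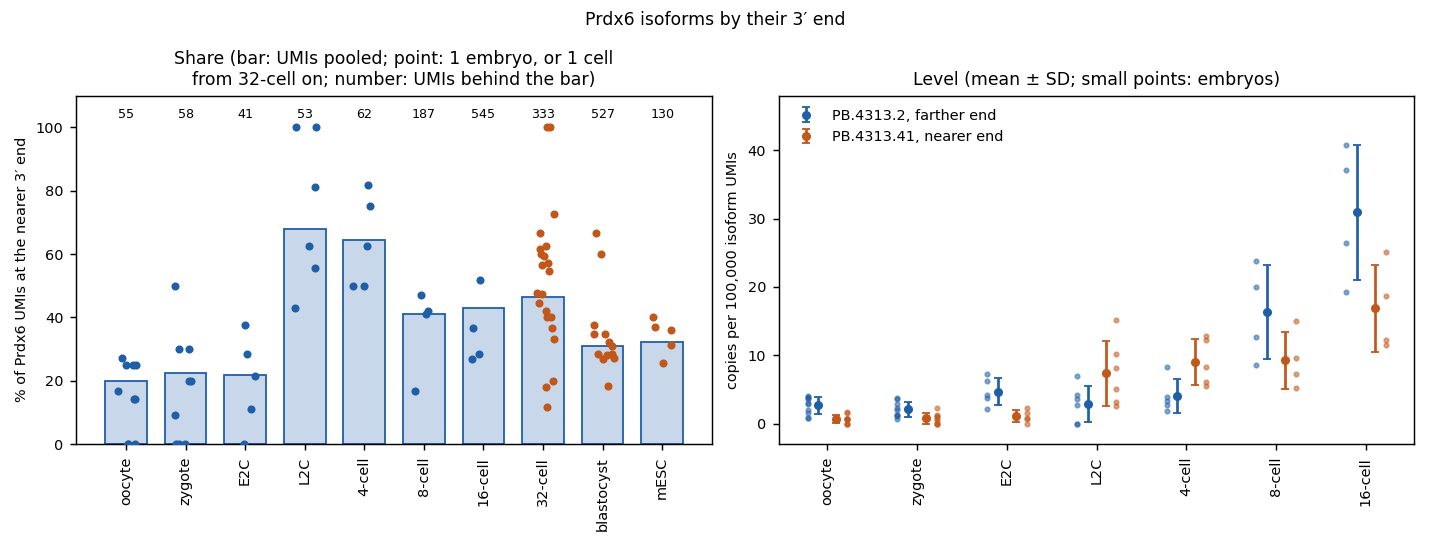
Left, percent of Prdx6 isoform UMIs ending at the nearer 3′ end by stage, with pooled UMIs as bars, embryos (or single cells from 32-cell on) as points and the UMIs behind each bar above it. Right, mean ± SD of PB.4313.2 (farther end) and PB.4313.41 (nearer end) in copies per 100,000 isoform UMIs with embryos as small points. The share is 22.0% at E2C and 67.9% at L2C, and the 2 isoforms change places between these stages.

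Isoform switches were tested on the shares of each gene's isoforms per embryo (limma-moderated fit on the arcsine square root scale, combined over a gene's isoforms by the Simes method). The share of PB.4313.41 averaged 14% in E2C and 61.5% in L2C embryos, and the gene-level adjusted p of Prdx6 was 0.0119, just over the limit of 0.01 for a switch. Prdx1 followed at 0.0188, led by PB.52925.15, which has a longer first exon and went from 4.26 to 1.09% of the gene. None of the 10 genes was called at any of the 6 steps, beside 731 of 4865 genes (15%) at E2C to L2C, and 4 of the 10 had an unadjusted gene-level p under 0.05 there. With embryos of at least 5 UMIs of the gene, Prdx1 (adjusted p = 0.00905) and Prdx6 (adjusted p = 0.00282) were called, and on a log2 ratio scale of the shares 4 genes were called (Prdx1, Prdx4, Prdx6 and Gpx4), both with limma. The UMI-weighted mean length of Prdx6 isoforms was 1338 ± 119.5 bases (SD, n = 5) at E2C and 1099 ± 117 bases (SD, n = 6) in L2C embryos. The exact permutation p was 0.0130 (two-sided) and became 0.288 when adjusted over the 36 tests of length and FSM share, of which none passed. With so few embryos, even the smallest possible p of 1 test alone does not pass after this adjustment. The adjusted result therefore cannot decide whether Prdx6 isoforms became shorter.

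Txn1 encodes the cytosolic thioredoxin (chr4:57943373-57956411, minus strand). It ran from 3.41 to 15.3 copies in oocytes with a median of 7.91 and from 4.46 to 19.5 in zygotes. The 4-cell embryos had 5.24, 0, 4.88, 3.03 and 1.28 copies and the 8-cell embryos 17.4, 25.7, 5.84 and 5.78, without overlap. This was the only step called for Txn1, with means of 2.89 ± 2.26 copies (SD, n = 5) and 13.7 ± 9.71 copies (SD, n = 4) (log2 fold change 1.99, SE 0.53, limma adjusted p = 0.00538). Without 8-cell replicate 2 it was 1.5 and was not called. The 16-cell embryos had 16.0, 50.01, 4.03 and 21.2 copies, and the embryo with 50.01 had a PB.52925.6 share of 2.68% and 8-cell replicate 2 a share of 0, both the lowest of their stages. The 16-cell embryo with 4.03 copies had a share of 3.57%, close to the lowest, and the 8-cell embryo with 17.4 copies had 53.5%. Whether the run moves these values was not tested. Medians were 40.7 in 32-cell cells, 52.8 in blastocyst cells and 120.1 (104 to 203) in mESC, where no cell overlapped the 32-cell or blastocyst cells, although run and stage cannot be told apart there. One isoform, PB.51582.2, held nearly all Txn1 UMIs that could be placed, and it rose at the same step (log2 fold change 2.04, SE 0.57, limma adjusted p = 0.0158). That call was lost without 4-cell replicate 5 (1.76), 8-cell replicate 1 (1.60) or 8-cell replicate 2 (1.52), with p no longer under 0.01.

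Txnrd1 encodes the cytosolic thioredoxin reductase, a selenoprotein (chr10:82833951-82897712, plus strand). Oocytes had 3.05 to 11.8 copies with a median of 6.54 and zygotes 2.58 to 11.9 with a median of 5.77. The E2C embryos had 2.40, 4.94, 3.60, 3.24 and 2.72, and L2C embryos spread from 0 to 13.0. The 4-cell embryos had 4.75, 17.4, 9.81, 1.17 and 1.84 copies, the 8-cell embryos 1.56, 0.927, 0 and 1.12 and the 16-cell embryos 1.29, 4.8, 3.92 and 3.42. The 17.4 of 4-cell replicate 2 rests on 4 UMIs. No step was called. Its fall from oocyte to 16-cell (log2 fold change -1.12, SE 0.37, limma adjusted p = 0.00674) was the weakest call of the 10 genes, with overlap, and was lost under 7 alternative settings. It was -0.56 without 16-cell replicate 1, -1.12 (p no longer under 0.01) without 16-cell replicate 2, -0.81 without the run 1 oocytes and zygotes, -0.79 without array weights, -1.05 in edgeR with TMM scaling, -0.99 with no filter and -0.62 with a pseudocount of 5. None of its 8 isoforms passed the filter.

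Gpx1 and Gpx4 are selenoproteins like Txnrd1: an in-frame TGA codes for selenocysteine, the residue of the active site, instead of ending the protein. The bases around this codon are shown (GENCODE M21, GRCm38, plus strand, TGA in capitals) because full-length reads tell which isoforms keep it.
Gpx1, chr9:108339439-108339465: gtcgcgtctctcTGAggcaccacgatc
Gpx4, chr10:80054725-80054751: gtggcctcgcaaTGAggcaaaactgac
Txnrd1, chr10:82896025-82896042: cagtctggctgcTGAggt
In Txnrd1 the codon stands near the end of the coding sequence, and all 8 isoforms of the table cover it. Both isoforms of Gpx1 and 4 of the 8 of Gpx4 cover it as well.

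Gpx1, the main soluble glutathione peroxidase (chr9:108338903-108340343, plus strand), was low before L2C. Of the 10 oocytes 9 had 0.561 to 3.52 copies and replicate 7 had 11.7, zygotes ran from 0.908 to 7.75, and the E2C embryos had 1.09, 0, 1.97, 3.17 and 4.85. L2C embryos ran from 10.4 to 55.6 with a median of 28.6, all above the E2C embryos. The mean rose 13.1-fold, from 2.22 ± 1.88 copies (SD, n = 5) to 29.1 ± 15.5 copies (SD, n = 6) (log2 fold change 3.10, SE 0.48, limma adjusted p = 1.19e-07). Levels then overlapped between neighbours, at 29.3, 25.0, 27.9, 31.7 and 43.5 copies at 4-cell, 34.6, 53.5, 38.8 and 35.3 at 8-cell and 43, 72.7, 25.9 and 23.9 at 16-cell. Medians were 39.8 at 32-cell, 54.7 in blastocysts and 112 (110.006 to 140.2) in mESC.

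Gpx1 had 2 isoforms, the spliced PB.77981.1 of 2 exons and PB.77981.2 of 1 exon, which keeps the only intron. Both rose from E2C to L2C, the spliced one from 2.26 to 25.8 copies (log2 fold change 3.05, SE 0.55, limma adjusted p = 8.76e-06) and the unspliced one from 0.474 to 11.1 (log2 fold change 2.44, SE 0.55, limma adjusted p = 0.000340). The unspliced form held 17.2% of Gpx1 UMIs in oocytes (10 of 58), 15.2% in zygotes (10 of 66), 20% in E2C (3 of 15), 24.1% in L2C (34 of 141), 12% in 4-cell (21 of 175), 11.2% in 8-cell (35 of 312) and 29.7% in 16-cell embryos (185 of 622), with single L2C embryos from 11.1 to 44.4% and 16-cell embryos from 9.09 to 35.2%. Of the 185 UMIs at 16-cell, 144 came from replicate 2, and without it the share was 19.2% (41 of 213). At E2C it was 10% without replicate 4 (1 of 10). In mESC it held 5.79% (7 of 121).

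Gpx4, the lipid peroxide-reducing enzyme (chr10:80047166-80056439, plus strand), showed the widest change of the 10 genes over the whole course. Oocytes had 0.553 to 7.11 copies with a median of 2.02, zygotes 1.27 to 6.82, and the E2C embryos 4.35, 1.95, 4.07, 0.483 and 2.70. L2C embryos ran from 16.7 to 57.0 with a median of 34.3. All L2C embryos lay above every earlier sample. The mean rose 12.8-fold, from 2.71 ± 1.59 copies (SD, n = 5) to 34.6 ± 13.1 copies (SD, n = 6) (log2 fold change 3.5, SE 0.41, limma adjusted p = 1.14e-10). The level was 37.9, 69.5, 59.5, 44.3 and 61.0 copies at 4-cell, 54.0, 87.2, 107 and 106 at 8-cell and 87.4, 104, 47.1 and 75.5 at 16-cell. From oocyte to 16-cell the log2 fold change was 4.78 (SE 0.33, limma adjusted p = 9.95e-20), a 32.5-fold rise of the mean. Medians of 86.8, 84.7 and 119.8 followed at 32-cell, in blastocysts and in mESC, with overlapping ranges.

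PB.7750.2, the form with the junctions of Gpx4-202, held 80 to 97.8% of the pooled Gpx4 UMIs in all 10 stages and cell types. A second isoform, PB.7750.4, leaves out the exon of 145 bases at chr10:80054700-80054844 that carries the selenocysteine codon (TGA in capitals), and 145 is no multiple of 3.
Gpx4 exon left out by PB.7750.4: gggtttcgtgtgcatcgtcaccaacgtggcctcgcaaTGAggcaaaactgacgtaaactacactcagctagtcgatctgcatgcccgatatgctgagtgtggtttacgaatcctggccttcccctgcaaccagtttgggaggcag
It was seen at 1 of 20 Gpx4 UMIs in E2C embryos (5%), 8 of 209 in L2C embryos (3.83%), 2 of 260 at 4-cell (0.769%), 1 of 634 at 8-cell (0.158%) and 3 of 1070 at 16-cell (0.280%). In oocytes 0 of 45 and in zygotes 0 of 69 UMIs carried it, which allows up to 6.67% and 4.35%, so a lower share at these stages was not detectable at this depth. Its level rose from E2C to L2C (0.302 to 1.53 copies, log2 fold change 1.01, SE 0.37, limma adjusted p = 0.0286), a call lost under 10 of the alternative settings.

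Over all 40 tested isoforms of the 10 genes, 16 of 240 comparisons between adjacent stages were called higher and 12 lower. At E2C to L2C 9 isoforms rose and 9 fell, beside 26% of all 29409 tested isoforms called in either direction. The 9 that fell were 7 isoforms of Prdx1 (PB.52925.9, PB.52925.15, PB.52925.23, PB.52925.174, PB.52925.182, PB.52925.186 and PB.52925.191) and 2 of Prdx2 (PB.72495.3 and PB.72495.68). The 9 that rose were PB.77981.1 and PB.77981.2 of Gpx1, PB.7750.2, PB.7750.4 and PB.7750.54 of Gpx4, PB.81884.1 and PB.81884.4 of Prdx4, PB.37964.1 of Prdx5 and PB.4313.41 of Prdx6. No gene had isoforms called in both directions at this step. The calls of PB.52925.23 and PB.72495.68 were lost without E2C replicate 2 or replicate 3. From oocyte to zygote 2 isoforms rose, PB.72495.31 and PB.72495.7 of Prdx2 (1.48% of all isoforms called). The log2 fold change of PB.72495.31 was 1.37 (SE 0.45, limma adjusted p = 0.0671), and the run 2 oocyte and zygotes had 47.1, 76.7 and 58.3 copies of it against at most 11.2 in any other. Run 2 holds 1 of 10 oocytes and 2 of 9 zygotes, and this call was lost without run 2 (0.75) and without run 1 (0.95). That of PB.72495.7 (1.41, SE 0.36, limma adjusted p = 0.00949) was lost without run 1 (1.06). From zygote to E2C none was called (5.18% of all), with 5 of the 40 at an unadjusted p under 0.05 in limma. From L2C to 4-cell 3 fell (4.29% of all), from 4-cell to 8-cell 4 rose (7.93% of all) and from 8-cell to 16-cell 1 rose (1.97% of all), the short Prdx6 isoform PB.4313.5.

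In run 4, oocytes were sequenced intact (4 columns) or after being split into 2 (6 columns) or 4 parts (6 columns), with 129744 to 289774 isoform UMIs per column. The question was whether the amount of input RNA moves the levels. Between intact oocytes and the columns of oocytes split in 4, 0 of the 10 genes passed an adjusted p of 0.05 (exact permutation test over columns, two-sided). With so few columns, a gene that alone had the smallest possible p would not pass after adjustment over the 10 genes. The adjusted result therefore cannot decide whether the amount of input RNA moves the level of a single gene. Which parts came from 1 oocyte is not given in the sources used here, so n counts columns, and the p-values are too small if parts share an oocyte. Of the 10, 2 had an unadjusted exact p near that limit, Prdx6 with 2.67 ± 0.891 (SD, n = 4) and 1.37 ± 0.712 (SD, n = 6) copies (exact p = 0.0381, adjusted 0.286) and Prdx5 (exact p = 0.0571, adjusted 0.286). Prdx1 had 354 ± 20.8 (SD, n = 4) copies in intact oocytes and 375 ± 63.7 (SD, n = 6) in the columns of oocytes split in 4 (exact permutation p = 0.571). These copies are per isoform UMIs, unlike the gene levels above. Intact oocytes of run 4 had 14.2 to 26.8 copies of Txnrd1, against gene levels of 3.05 to 11.8 in oocytes of the other runs. Prdx2 was lower, at 7.67 to 11.8 against 12.3 to 76.7. Prdx1 overlapped, at 325 to 370 against 233 to 448. Whether run or unit moves these levels was not tested. Prdx4 had no UMI in any of the 16 columns. The PB.52925.6 share was 27.5 to 30.0% in intact, 27.8 to 29.7% in the columns of oocytes split in 2 and 26.8 to 30.3% in those split in 4.

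Single blastomeres of a stage differed beyond counting error for some of the genes. Relative to the Poisson expectation at each cell's depth, the variance over the 38 16-cell blastomeres was 5.05 times as large for Txn1, 4.70 for Prdx1, 3.69 for Gpx1 and 3.13 for Gpx4, and 0.790 for Prdx5, 1.26 for Prdx4 and 1.38 for Prdx3. The ratio pools cells of 4 embryos. In Prdx1 the mean SD between cells of 1 embryo was 32.8 copies and the SD between embryo means was 11.3, while in Txn1 they were 12.1 and 19.5. Means over cells vary less than single cells, and counting error is part of the SD between cells, so the 2 SDs are unlike measures. The Txn1 SD between embryos rests on 4 values, with replicate 2 at 50.01 copies and the others at 4.03 to 21.2.

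The gene whose profile over the 43 oocytes, zygotes and embryos was nearest to a member, by Pearson's r of log2(copies + 1) among genes with a mean of at least 10 copies over all of them, is given as a description, since all points share stages and runs. It was Crabp2 for Prdx1 (r = 0.949), Cdca5 for Prdx2 (0.870), Mrpl33 for Prdx3 (0.901), Prps1 for Prdx4 (0.940), Cox7c for Prdx5 (0.913), Uqcrb for Prdx6 (0.906), Eef1b2 for Txn1 (0.729), Ube2t for Txnrd1 (0.669) and Ppia for Gpx1 (0.944). Crabp2, a retinoic acid-binding protein, had 63.8 copies in E2C and 1.12 in L2C embryos on average. Cox7c and Uqcrb encode subunits of the respiratory chain.

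Other genes of the same systems were taken from 5 lists. Of 12 tested thioredoxin system genes 2 rose and 4 fell from E2C to L2C, of 13 tested glutathione genes 3 rose and 4 fell, and of 13 tested selenoprotein genes and genes of selenocysteine synthesis 3 rose and 4 fell, beside 25.6% and 22.8% of all genes. None of 3 tested superoxide dismutase and catalase genes was called at this step, and of 4 NRF2 pathway genes 1 fell, the quinone reductase Nqo1 (2.11 to 0.284 copies, named after its value was seen). Median log2 fold changes of the 5 lists were -0.42, 0.39, 0.07, -0.09 and 0.05, beside 0.03 over all genes.

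Among these genes Mgst3, a microsomal glutathione transferase with peroxidase activity, fell from 181 ± 35.5 copies (SD, n = 5) to 4.43 ± 4.47 copies (SD, n = 6) (log2 fold change -5.74, SE 0.35, limma adjusted p = 3.84e-21). G6pdx, which makes NADPH in the pentose phosphate pathway, rose from oocyte to zygote (2.99 to 16.3 copies, log2 fold change 2.66, limma adjusted p = 7.93e-09), rose again to E2C (51.0 copies, 1.72, adjusted p = 0.00292, limma) and fell at L2C (4.34 copies, -4.26, adjusted p = 6.88e-09, limma). Glutaredoxin Glrx fell at the same stage (12.5 to 0.839 copies, -3.07, adjusted p = 5.49e-08, limma) and Glrx3 rose (2.90 to 15.4 copies, 2.11, adjusted p = 2.20e-05, limma). Among selenoproteins Msrb1, a methionine sulfoxide reductase, rose (0.453 to 14.4 copies, 3.40, adjusted p = 7.38e-11, limma), Selenot rose (7.86 to 37.9 copies, 2.13, adjusted p = 4.17e-07, limma) and Selenow fell (47.0 to 8.86 copies, -2.75, adjusted p = 2.65e-11, limma).

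Later steps moved fewer of them. Selenow rose from L2C to 4-cell (8.86 to 14.4 copies, 1.26, adjusted p = 0.0296, limma) and from 4-cell to 8-cell (14.4 to 52.1 copies, 1.61, adjusted p = 0.000315, limma), where Msrb1 (10.1 to 2.07 copies, -1.98, adjusted p = 0.000535, limma) and Gpx3, the secreted glutathione peroxidase, fell (13.6 to 5.13 copies, -1.21, adjusted p = 0.0449, limma). From 8-cell to 16-cell Gsto1, an omega-class glutathione transferase, rose (8.96 to 47.3 copies, 2.45, adjusted p = 0.00612, limma). Txnip, an inhibitor that binds thioredoxin, fell before the others, from zygote to E2C (64.7 to 10.4 copies, -2.61, adjusted p = 1.02e-07, limma), and fell again at L2C (4.45 copies, -1.91, adjusted p = 0.000517, limma).

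Before the main wave, Glrx rose from oocyte to zygote (11.9 to 24.6 copies, 1.15, adjusted p = 0.000494, limma) and Selenow from zygote to E2C (22.5 to 47.0 copies, 1.02, adjusted p = 0.000832, limma). Between the ends of the course, oocyte and 16-cell, the losses were led by Mgst3 (213 to 5.64 copies, -5.05), Txnip (52.4 to 1.19 copies, -4.77) and Slc7a11, which imports cystine (12.3 to 0.358 copies, -3.42). Glrx (-2.52), the selenophosphate synthetase gene Sephs2 (-2.31) and Trnau1ap (-1.13) were also lower. The gains were Gsto1 (1.22 to 47.3 copies, 4.62), Glrx3 (1.72 to 56.4 copies, 4.30), Selenoh (2.52 to 15.6 copies) and Sod2, the mitochondrial superoxide dismutase (16.8 to 44.1 copies, 1.38). Each of these 10 genes had an adjusted p of at most 9.74e-05 (limma).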

How the data were processed

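The authors sequenced barcoded single-cell cDNA on PacBio instruments, assigned barcodes and UMIs to full-length reads, mapped them to mm10 with minimap2, collapsed isoforms with cDNA_Cupcake and classified them with SQANTI3. Per the labels, 4 runs were made. The deposited gene and isoform tables of the first 3 runs hold copies per 100,000 UMIs of a cell (CPM divided by 10), and the columns of E2C, L2C and 4-cell cells, recorded here as a score because they name no run, are on the same deposited scale. All of these values came out as whole UMIs within 0.1. The deposited split-oocyte table holds raw isoform counts. Isoform coordinates are from the deposited annotation on mm10.

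Stages and embryos were read from the cell names, and the run of oocytes and zygotes from the study's cell list. The run of the other embryos is not given in the sources used here. Cell values were averaged per embryo, and log2(copies + 1) was fitted over 43 oocytes, zygotes and embryos with limma 3.58.1 in R 4.3.3 (trend and array weights), after a filter of at least 1 copy in at least 4 embryos. P-values measure the spread between these oocytes and embryos only. edgeR 4.0.16 and DESeq2 1.42.0 were run on the recovered UMIs as alternatives. The fits were also run on simulated counts with known changes. These held no run differences, so effects of the run were not covered. Genes of the same systems were named where called and with a mean of at least 10 copies in 1 of the 2 stages, at most 3 per list and comparison. The 10 genes, the lists and the tests were chosen with earlier results of these data known. The alternatives without oocyte replicate 7 and without the oocytes and zygotes of run 2 or of run 1 were chosen after seeing the data. How reads from processed copies of Prdx2, Prdx6, Txn1 and Gpx4 elsewhere in the genome, and from Prdx6b, were counted is not given in the sources used here, so these levels may hold some of them. The gene nearest in profile to Gpx4 is not reported here.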

Additional observations from a re-analysis of the deposited data

Results flagged for a closer look

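Of the values examined, 11 stood far from the other samples of their group by Dixon's ratio, among 97 groups tested. Chance alone gives about 1 in 20 for normally distributed values, a rate that need not hold for groups with few UMIs. Prdx2 was at 76.7 copies in oocyte replicate 6 (next 21), the only oocyte of run 2, and at 17.4 in 4-cell replicate 2 (4 UMIs, next 3.09). Several genes stood apart in oocyte replicate 7, with Prdx4 at 2.03 (next 0.928), Gpx1 at 11.7 (next 3.52) and Gpx4 at 7.11 copies (next 3.36). These are low levels, and no call of the 10 genes between oocyte and zygote was gained or lost without this oocyte. Gpx1 was at 7.75 in zygote replicate 6 (next 3.62), a zygote of run 2, and Txn1 at 9.21 in E2C replicate 3 (next 5.72).

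In run 4 Prdx2 was at 15.3 copies in 1 of the 6 columns of oocytes split in 4 (next 10.6). Prdx3 had UMIs in 1 of 4 intact oocytes (0.356 copies), 1 of 6 columns of oocytes split in 2 (1.24) and 1 of 6 of those split in 4 (1.05), with all others at 0. A single column with any UMI among zeros always gives the largest ratio. Parts may share an oocyte.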

How the results depend on the processing

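Of the single values recomputed under other settings, 1164 kept direction and side of the threshold, 72 kept the direction and were no longer called, and 1 reversed: Txnrd1 from oocyte to 16-cell was 1.35 when cells were thinned to 5000 UMIs, against -1.12. These were values called in the main fit, so calls gained under a setting show only in the counts that follow. Steps given above as not called are those of the main fit. Over adjacent steps the 10 genes had 5 calls higher and 3 lower. edgeR gave 9 higher with TMM and 8 with RLE scaling, and thinning gave 3 higher and 1 lower, and 1 lower from oocyte to 16-cell (3 without thinning). Thinning ended the calls of Prdx5 and Prdx2 at E2C to L2C, of Prdx2 at L2C to 4-cell and from oocyte to 16-cell, and of Txn1 at 4-cell to 8-cell. Fewer UMIs per cell remain under this setting, and 1 cell was left out. Leaving out each E2C, 4-cell, 8-cell and 16-cell embryo in turn gave 4 to 6 calls higher and 2 to 3 lower. The counts were 6 and 3 without the run 2 oocytes and zygotes, 6 and 3 without those of run 1 and 5 and 3 without oocyte replicate 7. No L2C embryo and no zygote was left out singly, so the weight of single L2C embryos in the E2C to L2C calls was not tested.

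With a pseudocount of 5 the isoforms had 5 calls higher (16 otherwise) and 6 lower (12), and 7 higher (11) and 3 lower (10) from oocyte to 16-cell. Isoform switches, 0 as reported, were 4 on the log2 ratio scale, 2 with at least 5 UMIs of the gene, and 0 to 2 when each embryo was left out, with 2 (Prdx5 and Prdx6) without E2C replicate 4. No paired analysis was possible because the replicate numbers of embryos mark no shared litter or animal. With the run as a block, the only shared factor known, none of the 10 genes was called between oocyte and zygote. None was called without it either, so no call could be lost. Over all 11682 genes, 173 were called higher and 14 lower with the block, against 314 and 35 without it in the same cells. The oocyte to zygote changes of G6pdx and Glrx above come from the fit without a run term. Depth limits the early levels of Prdx3, Prdx4, Gpx1 and Gpx4 and the late levels of Txnrd1.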

Other observations

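Among further glutathione peroxidase genes, Gpx3 and Gpx6 followed other courses than Gpx1 and Gpx4. Gpx7 rose like these from E2C to L2C, at a low level (0 to 2.11 copies, log2 fold change 1.68, SE 0.26, limma adjusted p = 1.67e-07). From oocyte to 16-cell, Gpx3 went from 24.3 ± 8.08 copies (SD, n = 10) to 2.10 ± 1.26 copies (SD, n = 4), a log2 fold change of -3.10 (SE 0.32, limma adjusted p = 5.20e-13). Gpx6 went from 6.49 ± 3.32 copies (SD, n = 5) at E2C to 0.409 ± 0.653 copies (SD, n = 6) at L2C (log2 fold change -2.28, SE 0.46, limma adjusted p = 2.60e-05). Cat, catalase, was at 0.0508 copies in oocytes and 3.90 copies in 16-cell embryos (log2 fold change 2.26, SE 0.20, limma adjusted p = 3.09e-15). Gpx6, Gpx7 and Cat were picked after their values were seen.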
